A study of Mus musculus with 6 samples.

Results

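The SET1/MLL complexes place methyl groups on lysine 4 of histone H3 (H3K4). Here 10 of their genes, called the members below, were followed in brains of mouse embryos labelled E4f1 KO and of WT embryos. They are the shared core subunits Dpy30, Ash2l, Rbbp5 and Wdr5, some of the catalytic subunits (Kmt2a, Kmt2b, Kmt2d, Setd1a and Setd1b), and the MLL partner Men1. They were found by their symbols, all 10 of them among the 24848 genes listed, and all 10 were among the 15848 genes expressed highly enough to be tested. Dpy30 was chosen because its level was lower in KO brains, so its KO to WT difference is given as a description with no test. The other 9 genes were chosen by their place in the complexes, and the list was drawn up with results of these data known.

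The KO group held brains of 3 E4f1 KO embryos and the WT group brains of 3 WT embryos, all at the stage E14.5, in mid-gestation, and dissected and frozen in the same way. E4f1 encodes a DNA-binding protein with zinc fingers, and the study concerns its part in pyruvate metabolism and Elongator activity in the developing brain. The labels do not give the allele, the driver of any deletion, the strain, the sex or the litters, and whole brain RNA cannot tell fewer cells of a type from less RNA per cell. E4f1 itself stood at 7.12, 7.01 and 6.92 CPM (counts scaled to library sizes adjusted by TMM) in KO 1 to KO 3, against 20.7, 21.6 and 21.5 CPM in WT 1 to WT 3. Libraries held 50186590 to 69068011 expected counts (read pairs assigned to genes by estimate) in KO and 42113465 to 74064707 in WT.

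H3K4 methylation marks active chromatin: the trimethylated form is found at promoters of transcribed genes and the monomethylated form at enhancers. Each complex has a catalytic SET domain subunit bound to a core of WDR5, RBBP5, ASH2L and DPY30, which raises its activity. The SETD1A and SETD1B complexes account for most trimethylation, KMT2A and KMT2B act at selected promoters, where menin helps to recruit them, and KMT2D acts mainly at enhancers. In the developing brain these enzymes are known for their roles in neural progenitors and neuronal differentiation.

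Dpy30 lies on the minus strand of chromosome 17 (74299474 to 74323944, GRCm38). GENCODE lists 6 transcripts, of which 5 start between 74316203 and 74316463, and the remaining transcript starts 7481 bases further upstream. The stretch of 220 bases directly upstream of that group of starts (RefSeq, GRCm38.p6, chr17:74316464-74316683, minus strand) is shown because Dpy30 is the member whose level differs and this is the sequence beside most of its starts. Capitals mark CGTCA, the reverse complement of TGACG.
Dpy30 upstream stretch: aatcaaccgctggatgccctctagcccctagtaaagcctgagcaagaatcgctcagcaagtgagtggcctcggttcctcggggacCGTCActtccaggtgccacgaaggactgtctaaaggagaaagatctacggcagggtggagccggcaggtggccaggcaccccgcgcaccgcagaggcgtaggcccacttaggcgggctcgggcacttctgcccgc
The stretch is 63.2% G and C and holds 15 CpG dinucleotides. The marked letters end 131 bases before the most upstream start of the group.

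E4F proteins are known to bind a site that contains TGACGT. Neither TGACGT nor its longer form TGACGTA, searched on both strands, occurred in any of the 4 RefSeq windows of Dpy30, each of which runs from 250 bases before a start to 50 bases after it. Of the 12239 tested genes with such a window, 12.4% held TGACGT and 2.30% held TGACGTA. Every gene with TGACGTA also holds TGACGT. Among the other members, Rbbp5, Wdr5, Kmt2a, Kmt2d, Setd1a and Men1 had windows and none held either motif, while Ash2l, Kmt2b and Setd1b had no entry. The shorter TGACG, added after the sequence above was read, was present in windows of Dpy30 and in 33.4% of the tested genes with a window, and in none of the other 6 members with one. An absent match says only that these letters are not in these windows.

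Dpy30 encodes a small protein that docks on ASH2L as a dimer. Its expected counts were 910, 683 and 637 in KO 1 to KO 3, against 2005, 1070 and 1683 in WT 1 to WT 3. After TMM scaling it stood at 12.73, 11.97 and 12.48 CPM in KO 1 to KO 3, against 26.9, 26.0 and 25.3 CPM in WT 1 to WT 3. All 3 KO libraries lay below all 3 WT libraries, with a wide gap and little spread inside either group. The mean was 12.4 ± 0.390 CPM in KO and 26.1 ± 0.806 CPM in WT (SD, n = 3 each), a KO to WT ratio of 0.475 with a 95% interval of 0.418 to 0.539. On the log2 scale the difference, KO minus WT, was -1.07 ± 0.08 (SE).

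The estimated mean length of the Dpy30 transcripts, which moves when the mix of isoforms moves, was 705, 706 and 705 bases in KO 1 to KO 3 and 706, 705 and 704 bases in WT 1 to WT 3. The groups overlapped in this measure, while the amount of transcript did not overlap. No exon of Dpy30 overlaps an exon of another GENCODE gene. The difference in Dpy30 was about as large in each fit that leaves out a library, with log2 values between -1.09 and -1.05. These fits reuse the values by which Dpy30 was chosen, so they describe it and are no test.

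**Figure D1:**
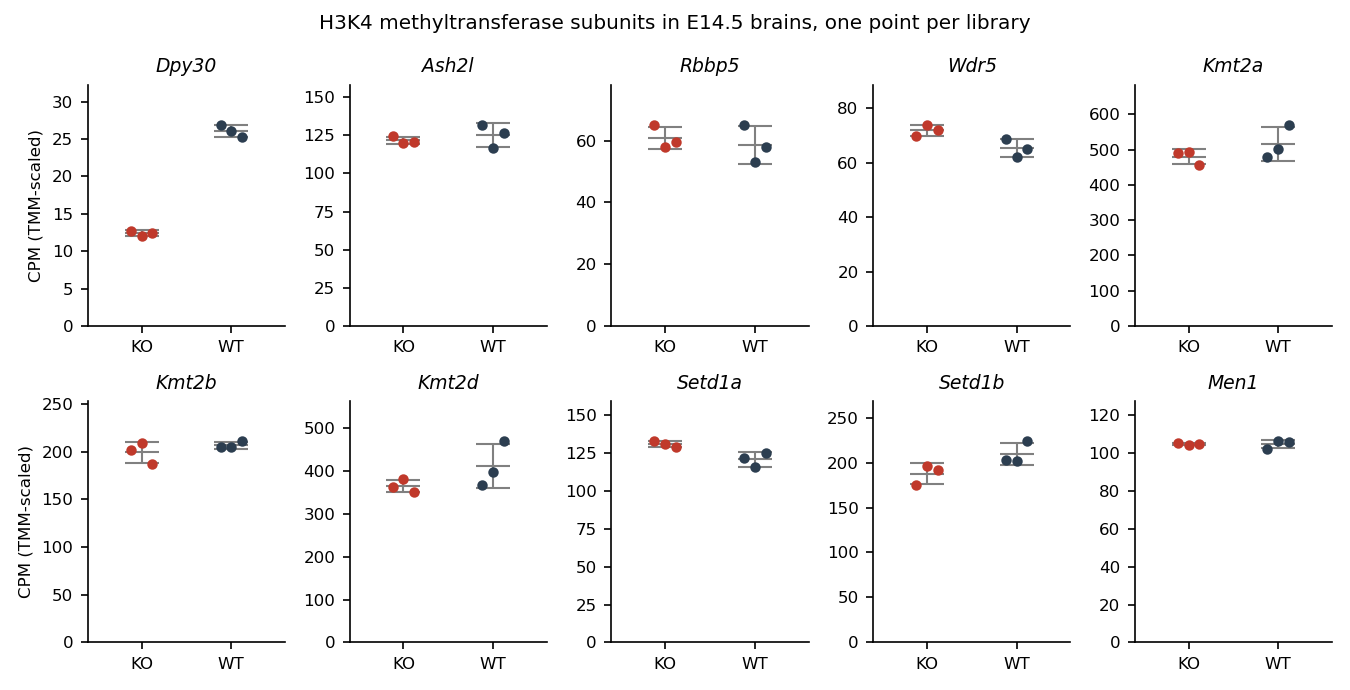
Levels of the 10 subunits in CPM (TMM-scaled, linear axes from 0), one point per library, with KO left of WT; the wide bar is the mean and the whiskers are the SD of 3 libraries. Dpy30 is at 11.97 to 12.73 CPM in KO and 25.3 to 26.9 CPM in WT, while the other 9 subunits lie close together in both groups.

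The other core subunits had nearly the same levels in both groups. Ash2l, whose product binds DPY30 and forms a heterodimer with RBBP5, stood at 124, 120 and 121 CPM in KO 1 to KO 3, against 132, 117 and 127 CPM in WT 1 to WT 3. The KO values fell inside the WT range, and the log2 fold change was -0.04 ± 0.07 (edgeR adjusted p = 0.776). Its 95% interval runs from a KO to WT ratio of 0.873 to one of 1.09.

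Rbbp5, the partner of ASH2L, stood at 64.9, 58.0 and 59.6 CPM in KO 1 to KO 3, against 65.1, 53.1 and 57.8 CPM in WT 1 to WT 3. Its groups overlapped, with a log2 fold change of 0.05 ± 0.09 (edgeR adjusted p = 0.785). Wdr5, the propeller protein that holds the catalytic subunit to the core, stood at 69.9, 73.9 and 71.9 CPM in KO 1 to KO 3, against 68.7, 62.1 and 65.1 CPM in WT 1 to WT 3. Every KO value of Wdr5 lay above every WT value, which held for 14.6% of all tested genes. The margin was small, and the log2 fold change of Wdr5, 0.14 ± 0.06, did not pass the test (edgeR adjusted p = 0.293). The interval of its KO to WT ratio runs from 0.989 to 1.23.

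The 5 catalytic subunits among the members did not pass the test in either direction. Setd1a, of one SET1 complex, stood at 133, 131 and 129 CPM in KO 1 to KO 3, against 122, 116 and 125 CPM in WT 1 to WT 3. Setd1b, of the other, stood at 175, 197 and 192 CPM in KO 1 to KO 3, against 203, 202 and 224 CPM in WT 1 to WT 3. Neither gene overlapped between the groups, and they lay on opposite sides: Setd1a was higher in all KO libraries and Setd1b lower in all of them. Of all tested genes, 27.6% had no overlap between the groups. The log2 fold changes were small, 0.12 ± 0.06 for Setd1a (edgeR adjusted p = 0.320) and -0.16 ± 0.08 for Setd1b (edgeR adjusted p = 0.307). Whether these 2 paralogs differ from each other in their response was not tested. In GENCODE, 51.8% of the exonic bases of Setd1a are shared on the same strand with the gene model Gm49388, for which the deposited tables hold no row.

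Kmt2a and Kmt2d spread more widely in WT than in KO, through WT 3. Kmt2a, the gene of MLL1, stood at 492, 494 and 456 CPM in KO 1 to KO 3, against 478, 502 and 571 CPM in WT 1 to WT 3. Kmt2d, the gene of the enhancer enzyme MLL4, stood at 362, 381 and 353 CPM in KO 1 to KO 3, against 369, 398 and 470 CPM in WT 1 to WT 3. In both genes WT 3 was the highest library and the groups overlapped. The log2 fold changes were -0.11 ± 0.09 for Kmt2a and -0.17 ± 0.10 for Kmt2d (edgeR adjusted p = 0.539 and 0.387). Without WT 3 they were -0.03 and -0.07. A score of midbrain genes, described with the markers of cell types, did not overlap between the groups. With it as a covariate, the log2 fold changes of Kmt2a and Kmt2d were -0.33 ± 0.14 and -0.45 ± 0.15. In that fit edgeR called neither (adjusted p = 0.981 for both).

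Kmt2b, the gene of MLL2, stood at 202, 209 and 188 CPM in KO 1 to KO 3, against 204, 205 and 211 CPM in WT 1 to WT 3. Its groups overlapped, with a log2 fold change of -0.05 ± 0.06 (edgeR adjusted p = 0.685). Men1, the gene of menin, was nearly level, at 105, 104 and 105 CPM in KO 1 to KO 3, against 102, 106 and 106 CPM in WT 1 to WT 3. Its log2 fold change was 0.00 ± 0.05 (edgeR adjusted p = 0.997), with an interval of the KO to WT ratio from 0.917 to 1.09. The estimated mean length of Men1 transcripts was 2787, 2790 and 2798 bases in KO 1 to KO 3, against 2822, 2822 and 2825 bases in WT 1 to WT 3. The mix of the 4 listed Men1 isoforms was thus estimated as slightly shorter in every KO library. Of the tested genes with several transcripts, 19.0% had no overlap between the groups in this length.

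Of the 10 members, 1 was called lower by edgeR at an adjusted p below 0.05, namely Dpy30, whose contrast the choice used, and 0 were called higher. Of all tested genes, 0.492% were called lower and 0.511% higher. DESeq2 made the same single call among the members, and called 4.06% of its tested genes lower and 4.81% higher, 8.87% in all. At an unadjusted p below 0.05, Dpy30 was again the only member, against 19.6% of all tested genes. Groups did not overlap in 4 members, Dpy30 and Setd1b on the lower side and Wdr5 and Setd1a on the higher side, against 27.6% of all tested genes. The median log2 fold change was -0.04 over the 9 members other than Dpy30 and 0.00 over all tested genes.

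**Figure D2:**
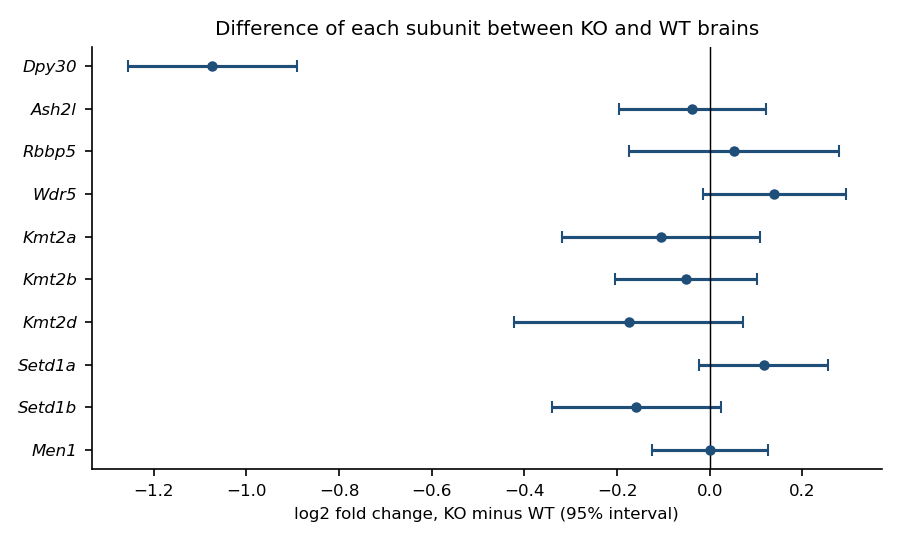
Log2 fold change of each subunit, KO minus WT, as points with 95% intervals from the edgeR fit. Dpy30 lies at -1.07, and the intervals of the other 9 subunits all include 0, the lowest bound being -0.42 for Kmt2d and the highest 0.29 for Wdr5.

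Levels of different genes can be set side by side only per transcript length, for which the TPM (transcripts scaled by length and library total) deposited by the authors was used. Dpy30 averaged 63.3 ± 1.91 TPM in KO and 134.8 ± 3.96 TPM in WT (SD, n = 3 each). In every WT library it was the most abundant of the 10 members, above Ash2l at 102 ± 6.17 TPM and Men1 at 101 ± 2.23 TPM. In KO its mean came after those of Men1, Ash2l, Kmt2a and Wdr5, and its range overlapped those of its neighbours in that order, Wdr5 at 66.4 ± 1.84 TPM and Kmt2b at 59.8 ± 4.05 TPM. Men1 at 101 ± 2.14 TPM and Ash2l at 97.9 ± 3.03 TPM led the KO order, with overlapping ranges. Rbbp5 was the lowest in both groups, at 45.4 ± 3.18 TPM in KO and 44.6 ± 4.62 TPM in WT, and overlapped Kmt2d in each. The summed TPM of the 5 catalytic members was 293, 300 and 276 in KO 1 to KO 3, against 297, 303 and 332 in WT 1 to WT 3, with overlapping groups. This sum leaves out the catalytic subunit Kmt2c, which is not a member. Kmt2c averaged 50.7 ± 1.44 TPM in KO and 52.0 ± 6.23 TPM in WT.

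The make-up of the transcripts of the core followed from this. Dpy30 held 23.2%, 22.7% and 23.6% of the summed TPM of Dpy30, Ash2l, Rbbp5 and Wdr5 in KO 1 to KO 3, against 38.5%, 40.8% and 38.7% in WT 1 to WT 3. The ratio of Dpy30 to Ash2l TPM was 0.645, 0.634 and 0.662 in KO 1 to KO 3, against 1.29, 1.40 and 1.27 in WT 1 to WT 3. Dpy30 transcripts thus outnumbered those of Ash2l in each WT brain and were fewer than those of Ash2l in each KO brain. These proportions use the contrast by which Dpy30 was chosen, and they concern transcripts, not proteins.

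**Figure D3:**
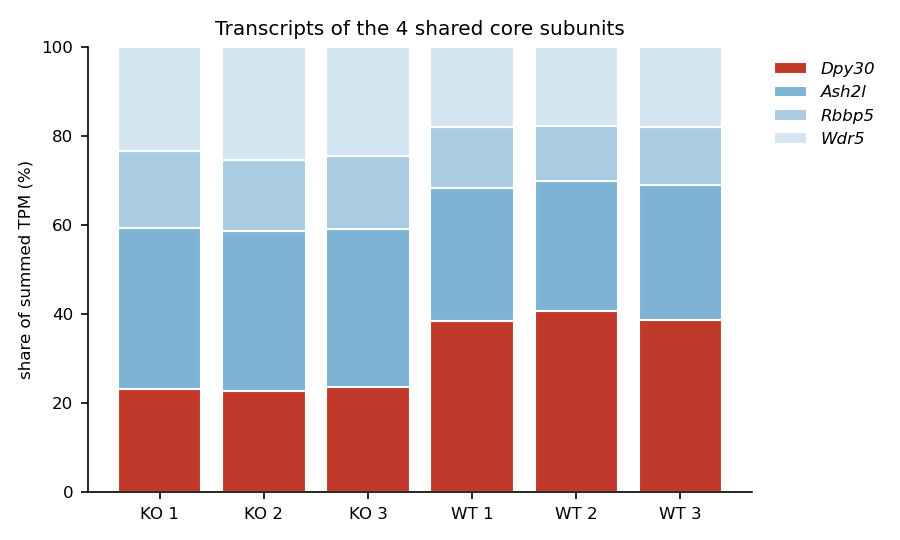
Share of the summed TPM of the 4 shared core subunits held by each of them, one bar per library, KO libraries left of WT. Dpy30 makes up 22.7% to 23.6% in KO and 38.5% to 40.8% in WT.

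The rest of the H3K4 methylation machinery was described from 9 further lists, together with related genes outside it. The related lists are the NSL complex, DPY30 domain proteins and partners, Polycomb repressive complex 2, and menin and MLL targets. Of the 65 tested genes of the 9 lists, edgeR called 0 lower and 0 higher. Among them 5 lower and 4 higher genes had an unadjusted p below 0.05, against 9.31% and 10.3% of all tested genes. DESeq2 called 0 lower and 2 higher, beside 4.06% and 4.81% of its tested genes. Groups did not overlap in 27.7% of these 65 genes, beside 27.6% of all tested genes.

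Among the 12 subunits found in only some of the complexes, Hcfc1, a cofactor of SET1 and MLL complexes, had the smallest p. It stood at 360, 363 and 355 CPM in KO 1 to KO 3, against 463, 387 and 449 CPM in WT 1 to WT 3, with no overlap and a log2 fold change of -0.27 ± 0.08 (edgeR adjusted p = 0.171). Ncoa6, a subunit of the MLL3 and MLL4 complexes, had 0.13 ± 0.06 (edgeR adjusted p = 0.326). The list median was 0.02, with 5 genes below 0 and 7 above. Kdm6a, the X-linked H3K27 demethylase of the same complexes, had the largest SE of the list and stood at 79.3, 50.03 and 74.1 CPM in KO 1 to KO 3, against 69.3, 44.9 and 51.0 CPM in WT 1 to WT 3. The X-inactivation transcript Xist stood at 2638, 16.2 and 2442 CPM in KO 1 to KO 3, against 2477, 0.365 and 0.451 CPM in WT 1 to WT 3, so the 3 libraries highest in Kdm6a were the 3 with abundant Xist. Kdm6a was chosen for mention after its values were seen, and its log2 fold change was 0.30 ± 0.23 (edgeR adjusted p = 0.493). Xist was abundant in KO 1, KO 3 and WT 1, so the groups were uneven in it. The part of this imbalance in the differences of X-linked genes such as Hcfc1 was not tested.

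Genes listed as adding or removing the mark outside these complexes did not pass the test either. All 4 genes listed as other methyltransferases (Kmt2e among them, its activity not examined here) and all 5 listed demethylases had positive fold changes. The medians were 0.13 and 0.09. The smallest p-values belonged to Prdm9 and Setd7 (0.31 ± 0.18 and 0.14 ± 0.10, log2; edgeR adjusted p = 0.382 and 0.488) and to the demethylases Kdm1a and Kdm5b (0.15 ± 0.08 and 0.09 ± 0.08, log2; edgeR adjusted p = 0.369 and 0.553). Prdm9, a meiotic enzyme, was low, at 3.94 to 4.53 CPM in KO and 2.94 to 4.10 CPM in WT.

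Of 13 readers of methylated H3K4, edgeR called none. At an unadjusted p below 0.05, 2 were higher and 1 was lower, beside 10.3% and 9.31% of all tested genes. Ing2, which brings histone deacetylases to the mark, stood at 14.0, 14.1 and 12.9 CPM in KO 1 to KO 3, against 10.8, 10.6 and 10.8 CPM in WT 1 to WT 3. Chd1, a chromatin remodeller that binds trimethylated H3K4, stood at 108, 101 and 109 CPM in KO 1 to KO 3, against 87.6, 68.9 and 87.7 CPM in WT 1 to WT 3. Both were higher in all KO libraries than in any WT library. Their log2 fold changes were 0.35 ± 0.09 and 0.38 ± 0.11, with edgeR adjusted p = 0.132 and 0.142, and DESeq2 called both (adjusted p = 0.0111 and 0.0494). The lower reader was Spin1, with a log2 fold change of -0.18 ± 0.07 (edgeR adjusted p = 0.237). Groups did not overlap in 3 readers on the lower side and 2 on the higher side, beside 13.0% and 14.6% of all tested genes. The list median was -0.03.

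The remaining lists held no call by edgeR. The 6 genes of H2B ubiquitination, which acts upstream of H3K4 methylation, had a median of -0.01, with Ube2a at -0.12 ± 0.09 and Rnf40 at -0.05 ± 0.05 (log2; edgeR adjusted p = 0.476 and 0.617). The 7 genes of the NSL acetyltransferase complex, which also contains WDR5, had a median of -0.10. Mcrs1 and Ogt of that complex were lower in all KO libraries than in any WT library, with log2 fold changes of -0.20 ± 0.06 and -0.19 ± 0.07 (edgeR adjusted p = 0.162 and 0.207). Akap8, a DPY30 binding protein outside the complexes, had -0.16 ± 0.06 (edgeR adjusted p = 0.247). Dydc2, which carries a DPY30 domain, was barely detected, at no more than 0.210 CPM in KO and 0.316 CPM in WT, and Dydc1 was too low to be tested.

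Polycomb repressive complex 2, which methylates lysine 27 of the same histone, had a median of 0.13 over 10 genes, 8 of them above 0. Rbbp7 and Phf19 had the smallest p-values, with log2 fold changes of 0.22 ± 0.07 and 0.46 ± 0.19 (edgeR adjusted p = 0.184 and 0.250). Among genes known from other tissues to depend on menin or MLL, 3 of 6 could be tested, and Meis1 and Cdkn1b had log2 fold changes of -0.38 ± 0.17 and 0.19 ± 0.13 (edgeR adjusted p = 0.292 and 0.450). Hoxa7, Hoxa9 and Hoxa10 had at most 2 counts in any library.

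**Figure D4:**
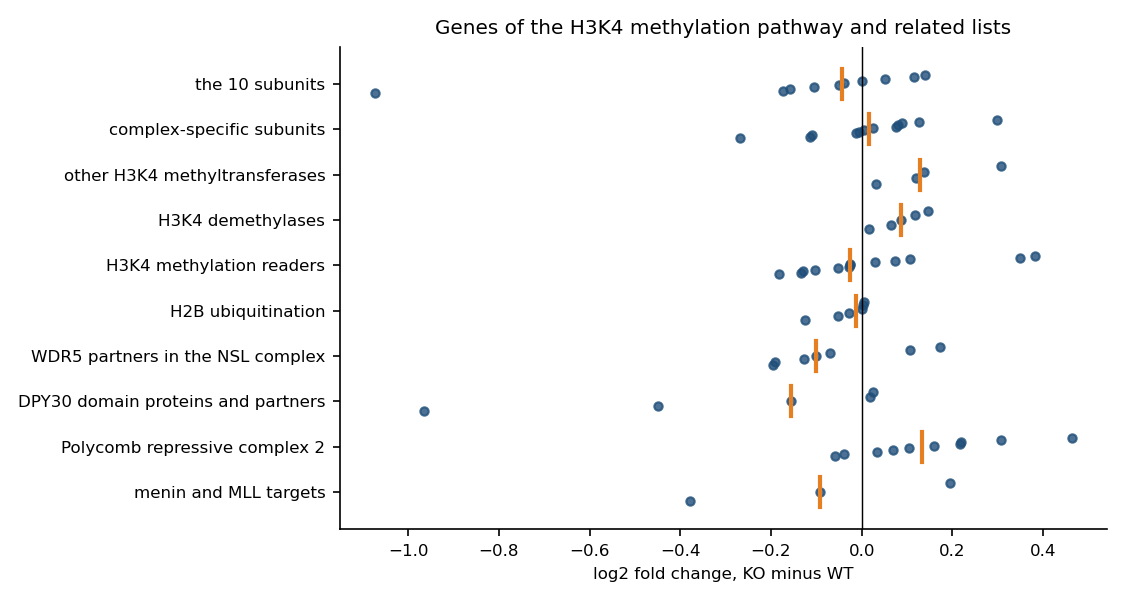
Log2 fold change of each tested gene, KO minus WT, in the 10 subunits and the 9 further lists; orange bars are list medians. Apart from Dpy30 at -1.07 and Dydc2, a barely detected gene, at -0.97, the genes lie between -0.45 and 0.46, and no list median lies further from 0 than -0.16.

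None of the tested neighbours of Dpy30, with a start within 100 kb of its own, was called. E4f1 also lies on chromosome 17, at 24443778 to 24455392, outside this window. Spast, whose start lies 15043 bases from the most upstream start of Dpy30 (74323944), on the other strand, and which encodes the microtubule-severing protein spastin, stood at 215, 211 and 214 CPM in KO 1 to KO 3, against 226, 235 and 250 CPM in WT 1 to WT 3. Its log2 fold change was -0.16 ± 0.06, without overlap between the groups (edgeR adjusted p = 0.238). Memo1, 28423 bases from that start on the same strand, had 0.07 ± 0.11, and Slc30a6, a zinc transporter gene 71664 bases away, had 0.13 ± 0.09 (edgeR adjusted p = 0.720 and 0.428). These were the 3 tested genes with a start within 100 kb.

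The genes whose values over the 6 libraries were most like those of Dpy30 were Ppp5c, Ipo8 and Eef1g, out of 9789 candidates with a mean of at least 10 CPM. Likeness was the root mean square difference of log2 CPM after each gene was centred on its own mean, and it was 0.0731 for Ppp5c, 0.0849 for Ipo8 and 0.0917 for Eef1g. Ppp5c, a protein phosphatase gene, stood at 32.6, 35.6 and 32.7 CPM in KO 1 to KO 3, against 69.6, 68.0 and 67.8 CPM in WT 1 to WT 3. Ipo8, a nuclear import receptor gene, stood at 24.7, 25.7 and 25.8 CPM in KO 1 to KO 3, against 54.7, 49.9 and 57.7 CPM in WT 1 to WT 3. Since the measure is dominated by the step between the groups, it selects genes with a KO to WT ratio near that of Dpy30, and no test is attached to them.

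**Figure D5:**
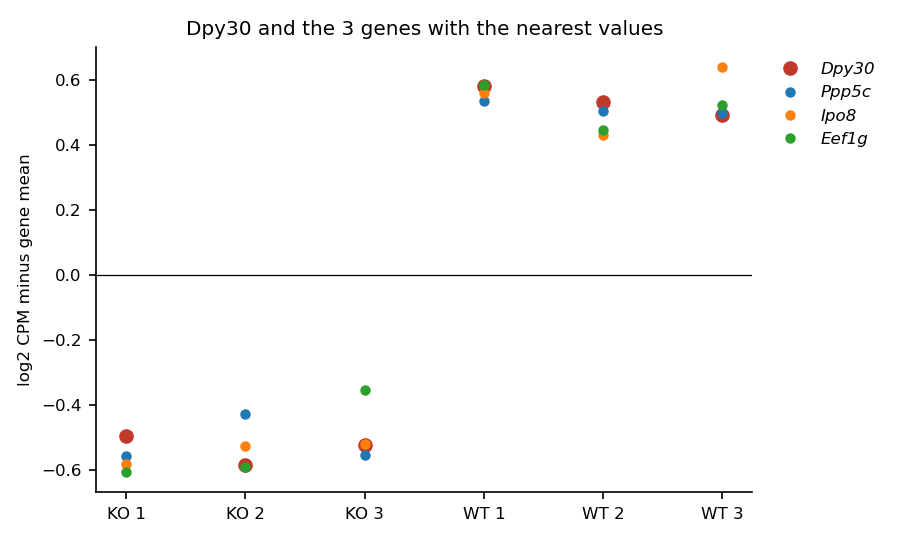
Log2 CPM minus the gene's own mean for Dpy30 (large red points) and its 3 nearest genes in each library, KO left of WT. All 4 genes lie below 0 in every KO library and above 0 in every WT library.

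Markers of cell types were also compared, and edgeR called only Cx3cr1 among them. Their summed levels did not overlap between the groups for neurons, microglia, endothelium, erythroid cells and midbrain, and overlapped for radial glia and meninges. Of all tested genes, 9.31% were lower and 10.3% higher at an unadjusted p below 0.05. DESeq2 called 4.06% of its tested genes lower and 4.81% higher. The summed level of 6 neuronal markers was 4782 to 5257 CPM in KO and 6081 to 6990 CPM in WT, and that of 6 radial glia markers was 1229 to 1408 CPM in KO and 1094 to 1632 CPM in WT. Of these, edgeR called 0 of 6 and 0 of 6, with 4 neuronal and 1 radial glia marker lower at an unadjusted p below 0.05, and DESeq2 called 3 neuronal markers and 1 radial glia marker lower. Microglia markers summed to 68.8 to 109 CPM in KO and 40.3 to 63.7 CPM in WT, with Cx3cr1 alone of 6 called by edgeR (higher) and 3 called higher by DESeq2. Endothelial markers summed to 251 to 351 CPM in KO and 195 to 226 CPM in WT, with 0 of 5 called by edgeR, 4 higher at an unadjusted p below 0.05 and 4 called higher by DESeq2. Erythroid markers summed to 675 to 936 CPM in KO and 290 to 621 CPM in WT, with 0 of 6 called by edgeR, 2 higher at an unadjusted p below 0.05 and 2 called higher by DESeq2. Meningeal markers were uneven within both groups, at 296 to 4654 CPM in KO and 339 to 2328 CPM in WT, and neither tool called any of the 4, with 0 at an unadjusted p below 0.05. The midbrain genes En1, En2 and Pax5 summed to 0.266, 1.61 and 1.16 CPM in KO 1 to KO 3, against 69.9, 33.9 and 3.07 CPM in WT 1 to WT 3. Of these 3, edgeR called 0, all 3 were lower at an unadjusted p below 0.05, and DESeq2 called all 3 lower. The mean log2 CPM of these 3 genes served as a score. It was -3.05, -1.31 and -1.97 in KO 1 to KO 3, against 4.12, 3.18 and -0.191 in WT 1 to WT 3. The groups did not overlap in it, so a fit with this covariate cannot tell the score from the genotype. In that fit the log2 fold change of Dpy30 was -1.03 ± 0.15. In the 4 brains with animal numbers above 300 (KO 1, KO 2, WT 1 and WT 2) it was -1.09 ± 0.12. In both fits edgeR called 0 genes of the whole table, Dpy30 included, with 753 and 1546 genes at an unadjusted p below 0.05. DESeq2 was run on all 6 libraries only. The part of cell make-up in the smaller differences of the other members was not tested.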

How the data were processed

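RNA-seq of 3 KO and 3 WT brains was analysed from RSEM gene tables. Per the labels' protocols, RNA was extracted with Trizol and libraries were made with a stranded KAPA mRNA kit. Tools named in the submitters' processing notes are STAR 2.5.3a, RSEM 1.2.28, Trimmomatic and FastQC, with the builds mm10 and GRCm38. No order or setting of these steps, nor whether counting used strand, is given in the sources used here. The deposited expected counts are RSEM estimates per gene, between 98.9% and 99.0% of them within 0.005 of a whole number, and were rounded. The TPM and the estimated transcript lengths were also deposited by the authors; TPM keep no depth. The deposited FPKM were not used.

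Genes were filtered with filterByExpr, scaled by TMM and tested with edgeR 4.0.16 (quasi-likelihood F test, robust, two-sided, Benjamini-Hochberg adjustment over all 15848 tested genes, called below 0.05). The SE corresponds to the F statistic, and intervals are 95%. Coordinates came from RefSeq (GRCm38.p6), exon overlaps, starts and strands from GENCODE. Of the single embryos the labels give genotype, stage and animal number, and no litter. The p-values set the KO to WT difference against the spread between brains within the groups, with each brain taken as independent.

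The members and lists were chosen with earlier results of these data known. Genes named are E4f1, the members, the called genes of each list or else the 2 with the smallest p, the tested neighbours within 100 kb, and the 5 nearest patterns (without predicted models, pseudogenes and sex-linked genes), of which the first 3 are reported here. Xist, Kdm6a, Spin1 and the marker Cx3cr1 were named besides, after their values were seen. Kmt2c was named as a catalytic subunit outside the members. Alternatives were DESeq2 1.42.0, limma 3.58.1 (voom, and log2(TPM + 1) or log2(TPM + 0.1) with at least 1 TPM in 3 libraries), other scalings and filters, blocks, a midbrain covariate and leaving out libraries. Library pairs within a group differed by a chi-square per degree of freedom of 45.1 to 175, so none was treated as a repeat.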

Additional observations from a re-analysis of the deposited data

How the results depend on the processing

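Over 19 alternatives, the log2 fold change of Dpy30 lay between -1.09 and -1.01. All of them refit the values by which Dpy30 was chosen, so they describe its dependence on the processing and are no support for its fall. The count of members called lower was 1 except with WT 1, WT 2, KO 1 and KO 2 alone (0) and with the midbrain score (0), and no alternative called a member higher. Calls over all genes moved more. Lower and higher calls were 78 and 81 as reported, 658 and 780 by DESeq2, 0 and 0 with those 4 libraries alone, 0 and 0 with the midbrain score, and 51 and 36 with the animal number as a block. Lower calls were 122 by limma on log2(TPM + 1) and 121 with 0.1 added instead, and higher calls 125 by limma on log2(TPM + 1) and 123 with library totals, which shift the median of all genes to 0.06. Without 1 library, lower calls were 24 (without KO 1) to 42 and higher calls 12 (without KO 1) to 40. Of the other list genes, DESeq2 called 2 higher. The replicate block gave 42 lower and 24 higher calls and left Dpy30 at -1.07 ± 0.08. Same-numbered libraries had deviations correlated by 0.121, 0.173 and 0.0160. Each KO library correlated best with the WT library of its own number, while WT 3 correlated best with KO 1 (0.120). The labels give no litters, so whether the numbers mark pairs cannot be told, and they were not taken as pairs.

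Signs turned only in genes that were not called by edgeR, and the cause was not tested. With library totals Ash2l had 0.027, Kmt2b 0.015 and Rnf40 0.013. With the 4 libraries alone Kmt2a had 0.014 and Kmt2b 0.012. With the midbrain score Men1 had -0.039, Setd7 -0.056, Kdm1a -0.0089, Kdm5b -0.034, Rnf40 0.0022, Dydc2 0.42, Meis1 0.087, Cdkn1b -0.14 and Memo1 -0.092. Men1 had -0.0060 by limma with either addition to the TPM and -0.00012 with at least 1 CPM in 3 libraries. Without 1 library, Ash2l had -0.086 to 0.0023, Rbbp5 -0.015 to 0.13, Kmt2b, with no turn, -0.085 to -0.012, Men1 -0.018 to 0.010 and Memo1 -0.017 to 0.15. The share of Dpy30 in the core transcripts was 23.0% to 23.4% in KO and 38.6% to 39.8% in WT when a library was left out, and from counts over effective length it was 23.2% in KO and 39.4% in WT. The lowest expected count of a member in any library was 637.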

Other observations

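Among genes with a RefSeq promoter window, TGACG, a motif added after the Dpy30 sequence was read, was present on either strand in 28 of 56 genes called lower, in 16 of 65 called higher (24.6%) and in 4085 of the 12239 tested (33.4%). The 28 include Dpy30 itself, whose sequence supplied the motif, so the share among the lower genes is a description only. The longer TGACGT was present in 8 of the 56 lower genes (14.3%) and in 6 of the 65 higher genes (9.23%), beside 12.4% of those tested. These are shares with no test, and 22 of the 78 lower genes had no window.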
